A study of Mus musculus with 22 samples.

Results

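The genes described here are 46 mouse genes of the cell division cycle: 25 that act in mitosis, 18 that act in DNA synthesis and its preparation, and 3 that were read apart, namely Ccnd1, Cdk4 and Cdkn1a. They were found by gene symbol in an expression table of 31641 transcripts and 23953 symbols, with 1 transcript kept per symbol, the one with the highest mean level. All 46 were present, and all 46 reached the minimum level used in each fit reported here, though not in every alternative with a higher minimum or fewer libraries. The series holds 22 libraries from untreated cells: 10 of RNA (RNA-seq) and 12 of immunoprecipitated chromatin (ChIP-seq).

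The 6 RNA libraries of BV2 cells, an immortalised mouse microglial line, came from cells carrying a lentivirus built on pCDH-CMV-MCS-EF1-Puro. The virus was empty (pCDH), or it carried an N-terminal piece of human huntingtin with 15 glutamines (Nwt) or with 128 glutamines (Nmu), driven by the CMV promoter. Each construct has 1 library at 24 h and 1 at a second time. The labels give the second time as 48 h and the column names of the expression table give 6 h, so it is called the second time and no order between the times is assumed. The other 4 RNA libraries came from mice whose huntingtin gene codes for 7 glutamines (HTT Q7/7, wild-type) or 175 glutamines (HTT Q175/175, mutant) in both alleles. For each genotype there is 1 library of brain microglia, sorted as CD11b+ and low in CD45 after a Percoll gradient. There is also 1 library per genotype of bone marrow-derived macrophages (BMDM), grown in L-cell conditioned medium as the source of macrophage colony-stimulating factor. The ages of the mice, the number of animals behind a library and whether a transduced line is a clone or a pool are not given in the sources used here. Nor do the labels say that libraries came from separate cultures or animals, so each p-value measures only the spread between these libraries.

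A cell divides by copying its DNA in S phase and parting the copies in mitosis. Before S phase, D-type and E-type cyclins with their kinases inactivate the retinoblastoma protein and free the E2F factors, which switch on genes for origin licensing, the MCM helicase and nucleotide supply. Later, the MuvB complex with B-Myb and FoxM1 drives the genes of mitosis: the cyclin B kinase, the Polo and Aurora kinases, spindle motors, centromere proteins and the anaphase-promoting complex that ends mitosis. Transcripts of both waves are scarce in resting cells, and adult brain microglia are known to divide slowly, while bone marrow precursors in macrophage colony-stimulating factor divide quickly.

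Levels are RPKM, reads scaled to the length of the transcript and to the size of the library, as deposited. The steps between low values put the depth at 10.8 to 14.0 M reads for the BV2 libraries and 28.8 to 47.8 M reads for the primary cells. Microglial markers (P2ry12, Tmem119, Siglech and 5 others) summed to 3995 and 3364 RPKM in the sorted microglia, to 69.7 and 97.4 in the macrophages, and to 25.5 to 118 in BV2, where P2ry12, Siglech, Sall1 and Fcrls were at or near 0. Markers of granulocytes and their bone marrow precursors summed to 1828 and 584 RPKM in the microglia libraries. They summed to 431 and 224 in the macrophages, and in BV2 to 219 in the 24 h Nmu library, nearly all of it Lcn2, against at most 6.36 in the other 5. Astrocyte markers summed to 22.5 and 19.8 RPKM in the microglia, nearly all of it Slc1a3, and to 0 in the other libraries. Oligodendrocyte markers summed to at most 7.03 RPKM, in mutant macrophages, and erythroid markers to at most 5.85, in mutant microglia. Sums of lymphocyte, endothelial, neuron and fibroblast markers were at most 2.81 RPKM in every library. Differences are of log2(RPKM + 1), which understates the change of low genes, and were tested with limma, with p-values adjusted by Benjamini-Hochberg over all genes that reached 1 RPKM in at least 2 libraries of the fit. A call is an adjusted p under 0.05. In these bulk samples, fewer dividing cells and less RNA per dividing cell cannot be told apart.

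The promoters of the members are shown first, because the mitosis and DNA synthesis genes carried different short motifs and are read apart throughout. RefSeq promoter sequences, from 250 bases before to 50 bases after the start of transcription on GRCm38.p6, were at hand for 38 members: 20 mitosis genes, 16 DNA synthesis genes, Cdk4 and Cdkn1a. In each sequence, capitals mark matches on either strand to the CHR element (TTTGAA or TTCGAA), which MuvB complexes bind, to the box CCAAT, bound by NF-Y, and to the E2F motif (TTGGCGC, or in place of it TTCGCGC, or in place of it TTCCCGC, or in place of it TTGCCGC). Positions give the first base of a match, with the start as base 1 and the base before it as -1. TTCGAA is its own reverse complement, and E2F and CCAAT matches can share bases. Plk1, Cdc20, Ccnb2 and Ube2c are printed for the mitosis genes because each differed by over 2 log2 units between BV2 and microglia and each holds a CHR element close to its start.
Plk1 (chr7:122159185-122159484, strand +): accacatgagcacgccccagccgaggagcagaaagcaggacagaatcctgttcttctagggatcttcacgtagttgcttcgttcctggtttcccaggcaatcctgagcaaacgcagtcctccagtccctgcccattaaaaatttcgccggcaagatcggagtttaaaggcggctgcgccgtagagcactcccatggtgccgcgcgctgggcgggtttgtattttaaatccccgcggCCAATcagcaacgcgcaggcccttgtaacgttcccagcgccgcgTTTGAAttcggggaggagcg
Cdc20 (chr4:118437294-118437593, strand -): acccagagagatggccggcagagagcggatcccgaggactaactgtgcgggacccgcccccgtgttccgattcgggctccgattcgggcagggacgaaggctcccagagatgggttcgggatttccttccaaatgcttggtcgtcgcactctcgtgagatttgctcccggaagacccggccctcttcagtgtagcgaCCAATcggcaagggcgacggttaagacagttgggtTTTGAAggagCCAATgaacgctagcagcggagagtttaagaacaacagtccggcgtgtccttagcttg
Ccnb2 (chr9:70421505-70421804, strand -): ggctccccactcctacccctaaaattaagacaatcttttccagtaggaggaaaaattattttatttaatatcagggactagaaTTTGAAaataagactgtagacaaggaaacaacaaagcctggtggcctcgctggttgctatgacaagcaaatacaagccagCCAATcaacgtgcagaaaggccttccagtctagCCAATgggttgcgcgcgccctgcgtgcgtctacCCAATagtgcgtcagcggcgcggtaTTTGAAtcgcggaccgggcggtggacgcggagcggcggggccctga
Ube2c (chr2:164769679-164769978, strand +): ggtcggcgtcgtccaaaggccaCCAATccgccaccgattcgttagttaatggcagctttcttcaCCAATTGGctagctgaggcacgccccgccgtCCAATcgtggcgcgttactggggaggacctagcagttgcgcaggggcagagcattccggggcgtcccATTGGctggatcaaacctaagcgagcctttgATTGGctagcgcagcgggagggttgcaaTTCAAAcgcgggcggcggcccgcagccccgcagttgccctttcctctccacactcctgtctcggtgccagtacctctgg

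In Plk1, which codes for the Polo kinase of spindle assembly, the CHR element began at base 31 and the CCAAT box at base -14. Cdc20, the activator of the anaphase-promoting complex, held a CHR element at base -18, between CCAAT boxes at -53 and -8. Ccnb2, a mitotic cyclin, held 3 CCAAT boxes at regular distances, at -87, -54 and -21, and CHR elements at -167 and 5. Ube2c, the ubiquitin-conjugating enzyme of the anaphase-promoting complex, held 6 CCAAT matches, 2 of which overlap, and a CHR element in reverse at -29. Mcm5, Mcm6 and Mcm3, subunits of the replicative helicase, are printed beside them because they hold E2F matches and no CHR element.
Mcm5 (chr8:75109259-75109558, strand +): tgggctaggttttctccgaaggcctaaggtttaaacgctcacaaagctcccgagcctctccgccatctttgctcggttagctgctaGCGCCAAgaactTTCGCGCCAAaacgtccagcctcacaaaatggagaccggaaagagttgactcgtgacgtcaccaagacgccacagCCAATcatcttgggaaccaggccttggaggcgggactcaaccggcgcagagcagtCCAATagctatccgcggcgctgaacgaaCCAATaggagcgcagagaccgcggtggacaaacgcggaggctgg
Mcm6 (chr1:128359656-128359955, strand -): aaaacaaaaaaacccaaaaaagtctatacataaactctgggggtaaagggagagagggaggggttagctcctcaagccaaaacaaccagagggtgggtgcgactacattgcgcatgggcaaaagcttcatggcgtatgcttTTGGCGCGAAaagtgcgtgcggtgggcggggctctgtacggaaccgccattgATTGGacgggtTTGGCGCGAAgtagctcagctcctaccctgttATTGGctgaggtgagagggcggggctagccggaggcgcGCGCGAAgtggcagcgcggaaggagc
Mcm3 (chr1:20820263-20820562, strand -): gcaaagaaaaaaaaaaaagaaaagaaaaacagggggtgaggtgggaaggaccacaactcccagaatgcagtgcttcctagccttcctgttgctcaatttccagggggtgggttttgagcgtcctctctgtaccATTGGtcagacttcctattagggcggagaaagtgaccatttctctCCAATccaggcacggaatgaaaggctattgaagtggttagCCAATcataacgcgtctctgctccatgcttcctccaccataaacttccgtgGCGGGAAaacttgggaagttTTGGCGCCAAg

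Mcm6 held 5 E2F matches, 4 of them in overlapping pairs that begin at -109 and -46. In Mcm5 the 3 E2F matches began at -164, -152 and -149, and in Mcm3 they began at bases 20, 40 and 43. All 3 helicase genes also held CCAAT boxes.

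Over the 20 mitosis promoters, 16 held a CHR element (80%), against 2 of 16 DNA synthesis promoters (12.5%, Mcm2 and Mcm7) and 21.7% of the 27025 genes of the promoter table. A CCAAT box was found in 17 mitosis promoters (85%), 9 DNA synthesis promoters (56.2%) and 41.1% of all genes. Both together were found in 15 mitosis promoters (75%) and 2 DNA synthesis promoters (12.5%), against 8.61% of all genes. The E2F motif went the other way: 3 mitosis promoters (15%, Cdk1, Ccnb1 and Mki67) and 9 DNA synthesis promoters (56.2%) held it, against 10.9% of all genes and 20.7% of the genes tested in BV2. The bar chart of motif shares shows these by list. A match describes these letters in this window and is not a measured binding site.

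**Figure D1:**
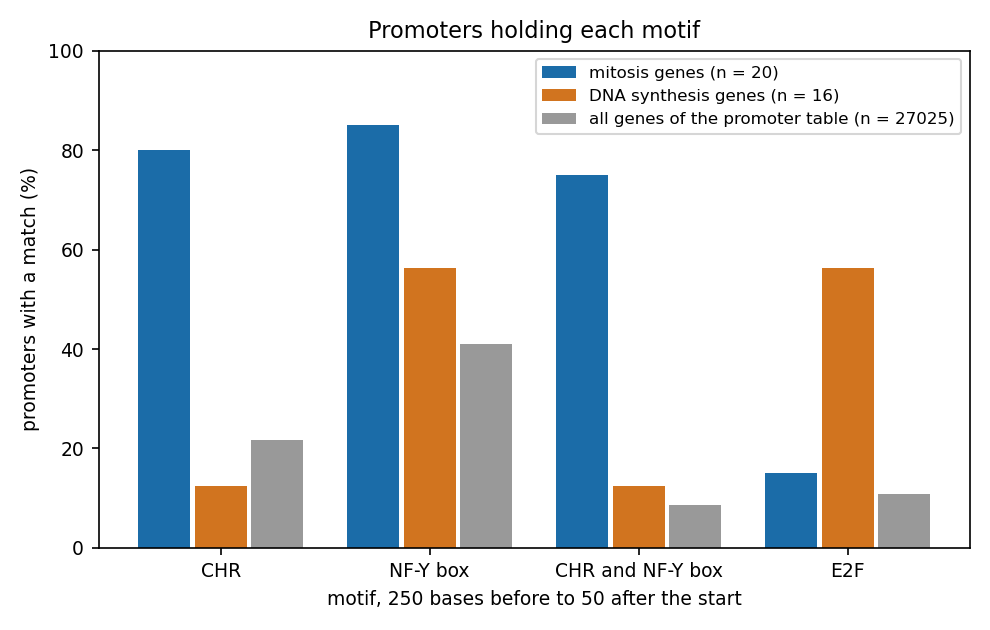
Share of promoters (vertical axis, %) that hold each motif (horizontal axis) from 250 bases before to 50 after the start, for mitosis genes (blue, n = 20), DNA synthesis genes (orange, n = 16) and all genes of the RefSeq promoter table (grey, n = 27025). The mitosis bars reach 80% for CHR and 75% for CHR with the NF-Y box CCAAT, and the DNA synthesis bar reaches 56.2% for E2F.

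Across the 10 RNA libraries, the members were lowest in sorted microglia and high in macrophages and in BV2 cells at the second time. The 25 mitosis genes summed to 17.1 RPKM in wild-type and 9.63 RPKM in mutant microglia. In BV2 they summed to between 99.2 and 170 RPKM at 24 h and between 374 and 436 at the second time, and in macrophages to 508 and 608. The 18 DNA synthesis genes summed to 61.4 and 54.3 RPKM in microglia, of which Pcna, the replication clamp that also serves DNA repair, gave 33.4 and 34.3. Their sums were 115 to 190 RPKM in BV2 at 24 h, 416 to 454 at the second time, and 332 and 484 in macrophages. In microglia, 4 mitosis genes reached 1 RPKM in the wild-type library (Kif11, Ccna2, Top2a and Mki67) and only Top2a did in the mutant one. Of the DNA synthesis genes, 10 and 8 reached it.

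**Figure D2:**
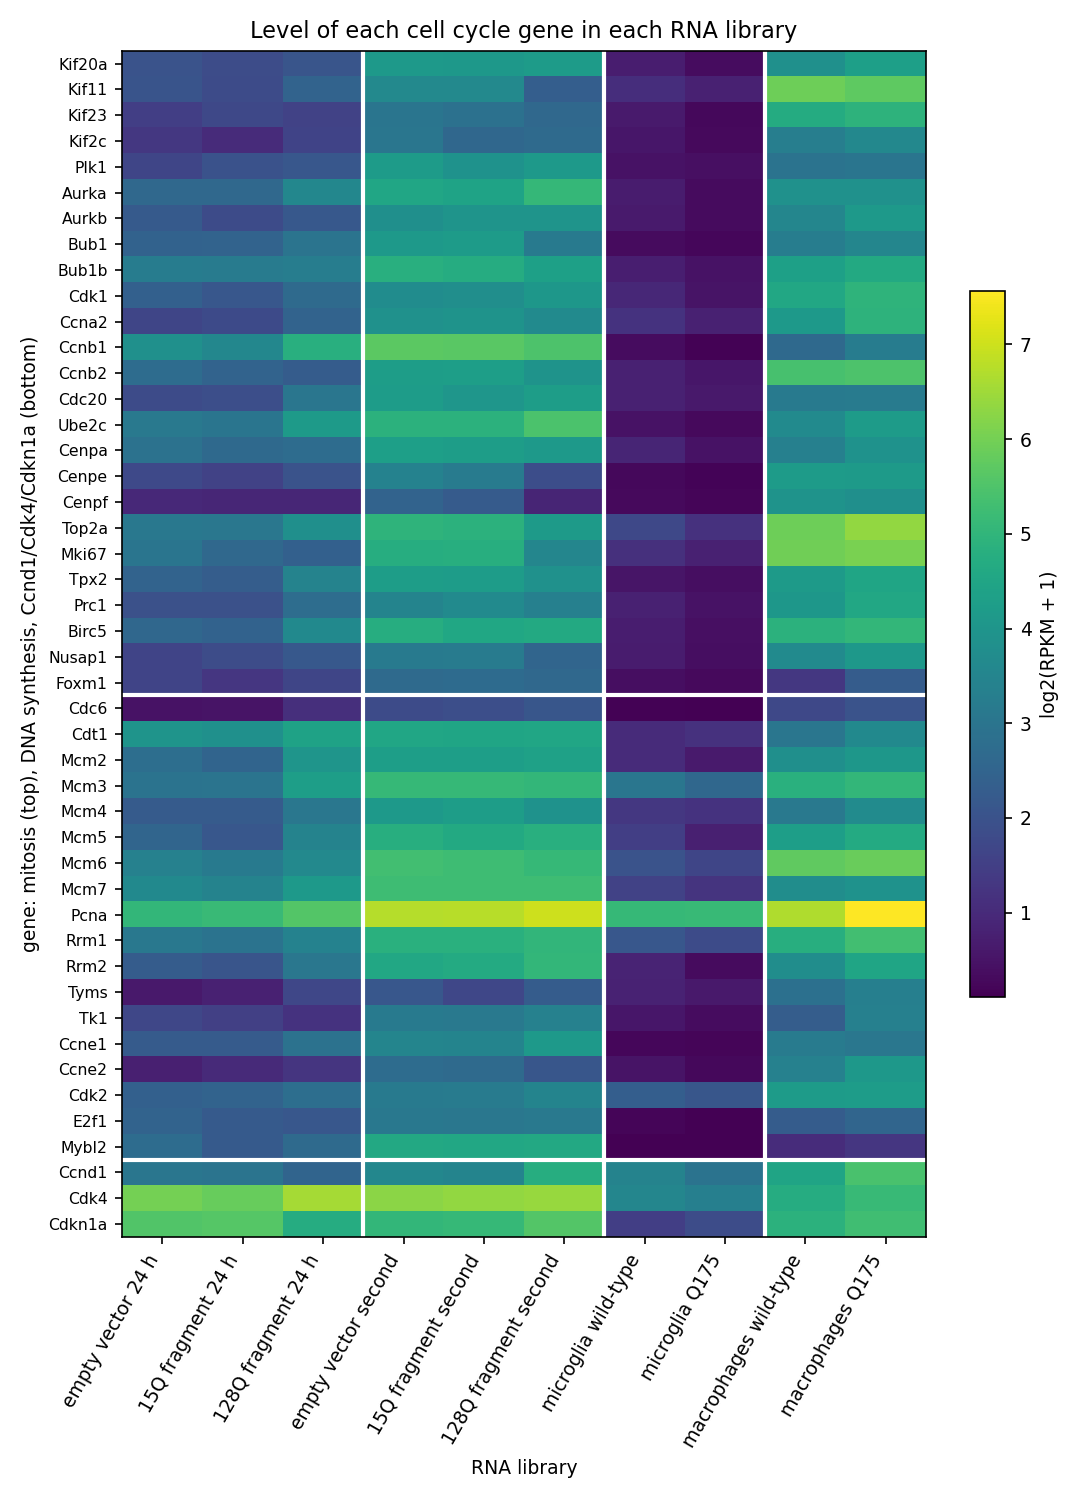
Level of each of the 46 genes (rows: mitosis, DNA synthesis, then Ccnd1, Cdk4 and Cdkn1a) in each RNA library (columns), with colour giving log2(RPKM + 1) and white lines parting gene lists and cell kinds. By the mean over libraries, microglia are the darkest cell kind for 45 of 46 rows, all but Ccnd1, and Pcna is the brightest DNA synthesis row. This order was not counted over all genes.

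Ordered by the mean over libraries, microglia were lowest for 45 of 46 genes, Ccnd1 being the exception, with its lowest mean in BV2 at 24 h. The highest mean was in BV2 at the second time for 24 genes, in macrophages for 21, and in BV2 at 24 h for Cdkn1a. Of 25 mitosis genes, macrophages were highest for 14 and BV2 at the second time for 11. Of 18 DNA synthesis genes, macrophages were highest for 6 and BV2 at the second time for 12. The difference between the lists was not tested, and these orders were not counted over all genes. Of the 11790 genes tested, 57.6% had both microglia libraries below both macrophage libraries, and 42.2% had them below every BV2 library. Some of these means were close, such as 16.7 RPKM in BV2 at the second time and 16.2 in macrophages for Kif20a.

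Against microglia, BV2 cells were higher for 42 of the 46 genes at an adjusted p under 0.05 in limma (10 libraries, 6 BV2 against 2 microglia), and for 39.8% of the 11790 genes tested. In limma 0 members were called lower, and 0 at an unadjusted p under 0.05, beside 28.5% of all genes called lower. The calls took in 25 of 25 mitosis genes, 15 of 18 DNA synthesis genes, Cdk4 and Cdkn1a. The median difference was 2.53 log2 units over mitosis genes and 2.27 over DNA synthesis genes, against 0.23 over all genes tested. For 42 members every BV2 library lay above both microglia libraries, as for 42.2% of all genes tested. With median-ratio scaling of the libraries 41 were called higher and 0 lower, beside 33.9% and 35.7% of all genes. The comparison rests in part on 1 library: without the mutant microglia, 27 members were called, beside 30.7% of all genes.

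Ccnb1, the cyclin B that activates the mitotic kinase, stood furthest apart of the members. It was at 13.4, 10.9 and 26.96 RPKM in BV2 at 24 h (pCDH, Nwt, Nmu), at 50.1, 49.0 and 43.8 at the second time, and at 0.291 and 0.121 RPKM in wild-type and mutant microglia. All 6 BV2 libraries lay above both microglia libraries, and the difference was 4.57 log2 units (SE 0.57, adjusted p = 5.45e-05 in limma, Benjamini-Hochberg). Ube2c was at 7.08 to 43.1 RPKM in BV2 and at 0.379 and 0.226 in microglia, a difference of 3.88 log2 units.

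Mybl2, which codes for B-Myb, the factor that joins MuvB in S phase, was at 3.69 to 23.5 RPKM in BV2 and at 0.079 and 0.085 in microglia, 3.46 log2 units apart (SE 0.67, adjusted p = 0.00115 in limma). Its levels in macrophages, 1.08 and 1.44 RPKM, were also below every BV2 library. Cdkn1a, which codes for the kinase inhibitor p21, is not a proliferation gene and was also far higher in BV2, at 25.4 to 47.5 RPKM against 1.82 and 2.59 in microglia (3.60 log2 units, SE 0.25, adjusted p = 8.31e-07 in limma).

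The 4 genes without a call were Ccnd1, Pcna, Mcm3 and Tyms. Ccnd1, the D-type cyclin that answers growth factors, was at 9.93 and 6.76 RPKM in microglia, within the BV2 range of 4.67 to 26.1 (0.18 log2 units, SE 0.50, adjusted p = 0.76 in limma). Pcna was at 32.0 to 127 RPKM in BV2 against 33.4 and 34.3 in microglia, so that 1 BV2 library, pCDH at 24 h, lay below both. Mcm3 was at 7.14 and 5.11 RPKM in microglia, the highest of the MCM genes there, and the 24 h pCDH and Nwt libraries, at 6.78 and 6.89, fell between these values.

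Microglia were also below macrophages. For all 46 members both microglia libraries lay below both macrophage libraries, as for 57.6% of the genes tested. In limma 45 were called lower, beside 39.8% of all genes tested; the exception was Mybl2, scarce in both kinds (1.06 log2 units lower, adjusted p = 0.305). The median difference was -3.56 log2 units for mitosis genes and -2.37 for DNA synthesis genes, against -0.42 over all genes tested. A fit of the 4 primary libraries with genotype as a term called 46 of 46 lower, beside 49.2% of all genes. In wild-type microglia only 4 of 25 mitosis genes and 10 of 18 DNA synthesis genes reached 1 RPKM. Members under 1 RPKM in both microglia libraries passed the minimum of this fit only through the 2 macrophage libraries. Their direction in it was thus set by the minimum, and the count of 46 is no separate support. The share of all genes turned on the scaling: with median-ratio scaling the fit of 10 libraries called 38 members lower, beside 22.7%, and the primary fit 46, beside 34.1%.

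Mki67, the antigen Ki-67 used to mark cycling cells, was at 1.20 and 0.729 RPKM in microglia and at 61.4 and 66.3 in macrophages, and fell by 5.06 log2 units from macrophages to microglia (SE 0.76, adjusted p = 0.00033 in limma). Kif11, the motor that pushes spindle poles apart, stood at 1.13 and 0.725 RPKM against 59.2 and 51.8. Ccnb2 stood at 0.725 and 0.477 RPKM against 41.4 and 43.5. Both genotypes of each cell kind lay close together beside the gap between the kinds.

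Between BV2 and macrophages the members split. In limma 15 were called lower in BV2 (11 mitosis genes, 3 DNA synthesis genes and Ccnd1) and 4 higher, beside 40.1% and 22.4% of the genes tested. With median-ratio scaling 14 were lower and 4 higher, beside 30.3% and 30.5%. The median was -1.20 log2 units for mitosis genes and -0.52 for DNA synthesis genes, against -0.27 over all genes. The 3 comparisons of cell kinds share their libraries. The lower calls included 3 of 4 spindle motors and 6 of 9 chromosome, centromere and spindle proteins, but only Cdk1 among 6 mitotic kinases and checkpoint genes.

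The split did not follow 1 list. Kif11 was at 2.50 to 11.4 RPKM in BV2 against 59.2 and 51.8 in macrophages, lower by 3.16 log2 units (SE 0.47, adjusted p = 0.000244 in limma). Kif23, the motor of the central spindle, was at 1.82 to 6.99 RPKM against 25.2 and 29.6, and no BV2 library came near. In contrast Plk1, at 2.17 to 17.2 RPKM in BV2, spanned the macrophage values of 6.68 and 6.97, and Cdc20 spanned its own of 7.93 and 8.22.

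The 4 genes called higher in BV2 than in macrophages were Ccnb1 (1.89 log2 units, adjusted p = 0.0149), Mybl2 (2.41, adjusted p = 0.0104), Cdt1 (0.95, adjusted p = 0.00513) and Cdk4 (1.31, adjusted p = 0.000318), all in limma. Cdt1 loads the MCM helicase at origins and was at 13.6 to 22.04 RPKM in BV2 against 7.24 and 11.5. Cdk4, the kinase partner of D-type cyclins, was at 55.8 to 93.2 RPKM in BV2, 25.7 and 33.9 in macrophages and 10.5 and 9.13 in microglia, with no overlap between the 3 kinds. Counts for this comparison depended on the libraries: with the 24 h BV2 libraries alone, 35 members were called lower, beside 42.1% of all genes. Without the mutant macrophages 6 were called lower and 3 higher, beside 29.8% and 20% of all genes. Without the wild-type macrophages 11 were lower and 1 higher, beside 34% and 15.4%. The cell kinds also differ in handling (a transduced line, sorted cells and a primary culture) and in depth, which cannot be told apart from the kind.

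Genes of the same pathways outside the 46 gave similar counts. Of 39 other mitosis genes, 38 were called higher in BV2 than in microglia and Pttg1, which codes for securin, was called lower (-0.89 log2 units). Of 25 other DNA synthesis genes 21 were called higher. Over all genes tested, 39.8% were called higher and 28.5% lower in BV2 than in microglia. Between microglia and macrophages, 35 of the 39 and 23 of the 25 were called lower in microglia, beside 39.8% of all genes. Of 12 measured cell cycle inhibitors and p53 targets, 5 were called higher and 2 lower in BV2 than in microglia, beside the same 39.8% and 28.5%. The antiproliferative gene Btg2 was at 362 and 349 RPKM in microglia, 26.1 and 11.6 in macrophages and 1.39 to 3.95 in BV2. Cdkn1b, which codes for the inhibitor p27, was at 14.0 and 12.7 RPKM in microglia, within the macrophage values of 11.2 and 14.9, and at 1.27 to 2.89 in BV2.

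In BV2 cells the summed levels of both lists were higher at the second time than at 24 h in every construct. The mitosis genes summed to 111, 99.2 and 170 RPKM at 24 h (pCDH, Nwt, Nmu) and to 436, 422 and 374 at the second time, ratios of 3.94, 4.25 and 2.20. The DNA synthesis genes gave ratios of 3.41, 3.63 and 2.39. For 41 of 46 genes all 3 libraries of the second time lay above all 3 of 24 h, which held for 24% of the 10350 genes tested, and for no member did they all lie below, which held for 8.68% of genes. The 5 genes with overlap were Kif11, Cenpe, Cenpf, Cdk4 and Cdkn1a.

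The test across all genes made no call in either direction, for members or for any of the 10350 genes (0% called; smallest adjusted p = 0.0560 in limma, construct as a term, 2 residual degrees of freedom). At an unadjusted p under 0.05, 43 members were higher and 0 lower, beside 19.8% and 7.32% of all genes tested. The median difference was 1.45 log2 units over mitosis genes and 1.54 over DNA synthesis genes, against 0.10 over all genes tested. The 3 genes read apart had a median of 0.22.

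The count of calls turned on the Nmu libraries. Fitted on the 4 libraries of the control constructs alone, limma called 45 members higher at the second time and Cdkn1a lower, beside 32.1% of 10094 genes higher and 15.2% lower. Leaving either Nmu library out of the fit on 6 gives no separate check. The remaining Nmu library is then fitted by its own construct term, so the time difference rests on the same 4 control libraries. Without the Nwt library of 24 h 21 members were called higher, beside 0.784% of all genes, and without that of the second time 21, beside 0.742%. Without either pCDH library the count was 0, beside 0%. A minimum of 5 RPKM gave 23 calls beside 1.8% of all genes, a pseudocount of 5 gave 26 beside 3.51%, leaving out transcripts under 200 bases gave 32 beside 4.58%, and no construct term gave 35 beside 5.48%.

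Among the spindle motors, Kif20a, which acts in cytokinesis, was at 3.05, 2.60 and 3.21 RPKM at 24 h (pCDH, Nwt, Nmu) and at 16.8, 15.9 and 17.5 at the second time. The constructs agreed closely, and the difference was 2.17 log2 units (SE 0.13, adjusted p = 0.0560 in limma), or 2.18 in the controls alone (adjusted p = 0.00194). Kif11 did not follow: it was at 3.15, 2.50 and 4.62 RPKM at 24 h, and at the second time at 11.2 and 11.4 in the controls and 4.07 in Nmu. Its difference was 1.69 log2 units in the controls and 1.08 over all 6 libraries (SE 0.42, adjusted p = 0.184 in limma).

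Of the mitotic kinases, Plk1 was at 2.17, 2.95 and 3.36 RPKM at 24 h and at 17.2, 13.9 and 16.7 at the second time, a difference of 2.15 log2 units (SE 0.17, adjusted p = 0.0560 in limma). Its 3 constructs lay close together at each time. Aurka, a kinase of the spindle poles, was at 5.22, 5.13 and 10.9 RPKM at 24 h and at 22.1, 20.8 and 32.4 at the second time, with Nmu highest at both times. Aurkb, the kinase of the centromere, was at 3.65, 2.50 and 3.48 RPKM at 24 h and at 13.3, 14.7 and 14.7 at the second time.

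The cyclins and the genes of the anaphase-promoting complex had the highest median of the mitosis groups, 1.66 log2 units. Cdc20 was at 2.49, 2.74 and 7.19 RPKM at 24 h and at 17.7, 15.5 and 18.0 at the second time, so that the 3 constructs were closer together at the second time. Ccna2, the cyclin of S and G2 phase, was at 2.18, 2.44 and 4.58 RPKM at 24 h and at 13.7, 14.3 and 11.7 at the second time. Birc5, which codes for survivin of the chromosomal passenger complex, was at 5.03, 4.48 and 11.6 RPKM at 24 h and at 25.9, 22.6 and 24.1 at the second time.

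Of the DNA synthesis genes, Rrm2, the regulated subunit of ribonucleotide reductase, had the largest difference of all members, with 3.90, 3.19 and 7.46 RPKM at 24 h and 22.7, 24.2 and 32.2 at the second time (2.28 log2 units, SE 0.17, adjusted p = 0.0560 in limma). Mcm5 was at 4.81, 3.35 and 9.78 RPKM at 24 h and at 26.4, 23.7 and 27.1 at the second time (2.04, SE 0.25, adjusted p = 0.0597 in limma). Mybl2 was at 5.71, 3.69 and 5.45 RPKM at 24 h and at 23.3, 23.0 and 23.5 at the second time. All libraries of the second time were above all of 24 h in each of these. The smallest differences on this list were those of Cdt1 (0.44 log2 units), Cdk2, the kinase partner of cyclin E (0.72), and E2f1 (0.82).

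Of the genes read apart, Cdk4 and Cdkn1a had levels that overlapped between the times. Cdk4 was at 63.6, 55.8 and 93.2 RPKM at 24 h and at 76.5, 81.6 and 83.8 at the second time, with overlap (0.22 log2 units, adjusted p = 0.485 in limma). Cdkn1a was at 45.6, 47.5 and 25.4 RPKM at 24 h and at 32.3, 33.5 and 46.5 at the second time: in both controls it was lower at the second time, and in Nmu it was higher. In the controls alone the second time minus 24 h was -0.49 log2 units for Cdkn1a (adjusted p = 0.0132) and 0.40 for Cdk4 (adjusted p = 0.0385, limma).

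**Figure D3:**
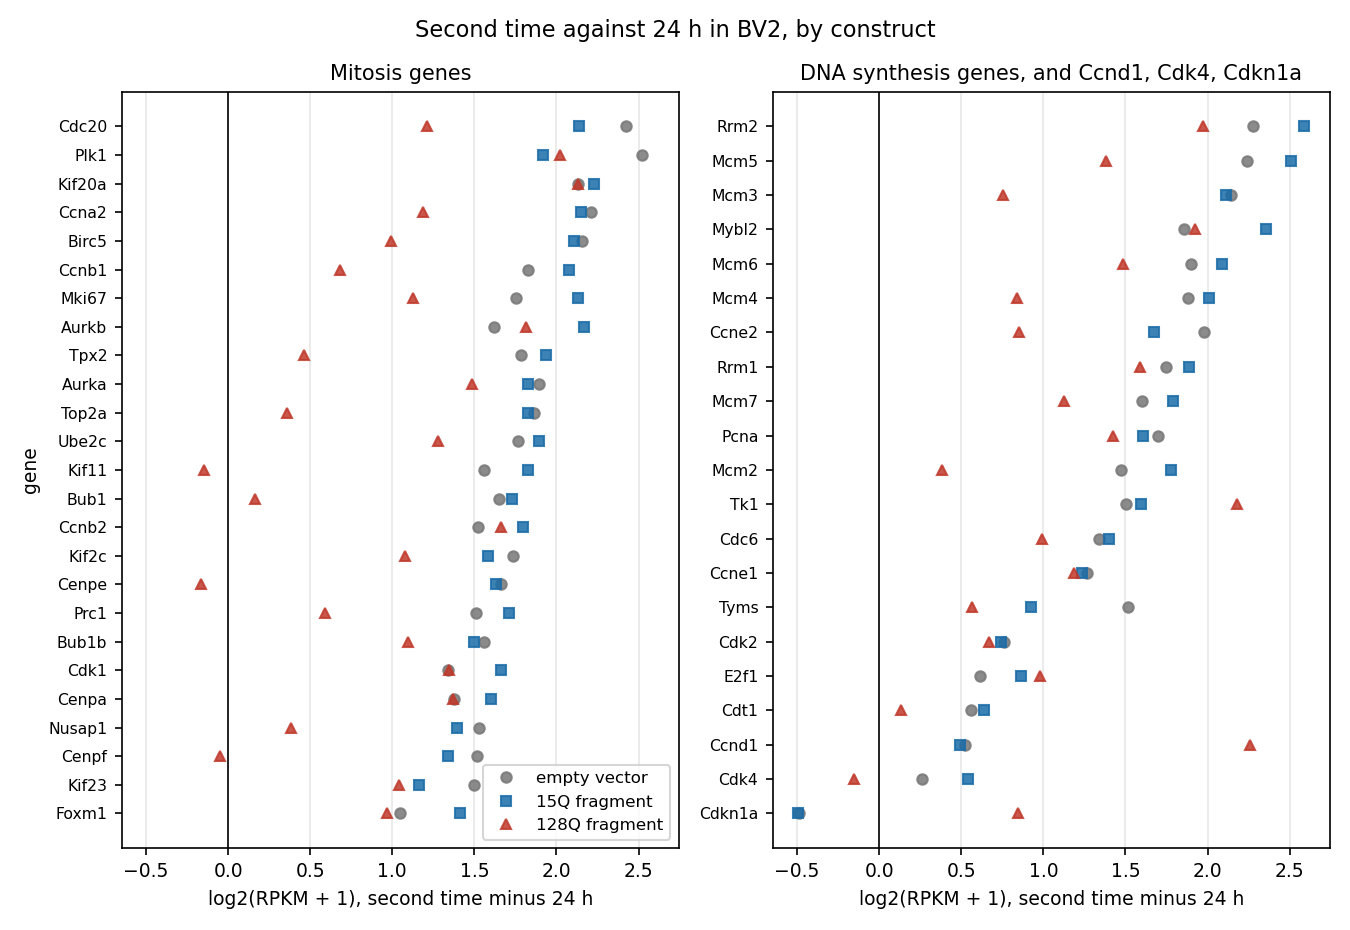
Difference in log2(RPKM + 1) between the second time and 24 h (horizontal axis) for each gene (vertical axis) in BV2 cells with the empty vector (grey circles), the fragment with 15 glutamines (blue squares) and the fragment with 128 glutamines (red triangles), 1 library per time and construct. The median over all members is 1.64, 1.75 and 1.06, and Kif11, Cenpe and Cenpf have red triangles at or just below 0.

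All 39 other mitosis genes and all 25 other DNA synthesis genes also had positive differences, with medians of 1.19 and 1.37 log2 units. None was called by limma, and 35 and 23 had an unadjusted p under 0.05, beside 19.8% of all genes higher and 7.32% lower at that level. The largest were Uhrf1 (1.97), which recruits the maintenance methyltransferase, Tacc3 (1.79), a spindle protein, and Incenp (1.75), the scaffold of the passenger complex. The 12 measured G1 and pocket protein genes had a median of 0.40, with E2f8 at 1.47 and Rb1 at -0.75. The 12 measured inhibitors and p53 targets had a median of -0.08, 6 in each direction.

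The mutant fragment was set against both controls in turn. Over both times, limma called 0 members against pCDH and 0 against Nwt, where 9 and 7 genes of 10350 were called higher (0.087% and 0.0676%) and 0 lower (0%). At an unadjusted p under 0.05 there were 4 members higher and 1 lower against pCDH, beside 776 and 808 of the 10350 genes, and 5 higher and 1 lower against Nwt, beside 772 and 872. Nwt against pCDH also gave 0 calls among members and among all genes (0%; 66 genes at an unadjusted p under 0.05). These comparisons share libraries. Their counts rested on single Nmu libraries: without the Nmu library of the second time, 23 members were called higher and 2 lower against pCDH, beside 17.6% and 15.6% of all genes. Against Nwt the same omission gave 24 and 2, beside 17.2% and 16.1%. Without the Nmu library of 24 h there were 2 higher and 7 lower against pCDH, beside 5.31% and 10% of all genes, and 4 and 7 against Nwt, beside 5.4% and 11.9%.

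The values at each time have 1 library a side and no test. At 24 h, Nmu lay above both controls for 35 members and below both for 7, beside 47.7% and 40.6% of all genes tested. At the second time it lay above for 23 and below for 20, beside 40.3% and 45.7%. The median difference between Nmu and the mean of the controls was 0.43 log2 units over mitosis genes and 0.53 over DNA synthesis genes at 24 h (0.05 over all genes), and -0.21 and 0.10 at the second time (-0.03 over all genes). The medians of these lists thus lay on opposite sides of 0 at the second time. The 25 other DNA synthesis genes had a median of -0.04 there, with 11 above the control mean and 14 below. The 39 other mitosis genes had a median of -0.24, with 6 above and 33 below.

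At 24 h, 5 members were at least 2-fold above both controls on the log2(RPKM + 1) scale, beside 4.15% of all genes, and 0 were 2-fold below, beside 4.81%. They were Cdc20, Ube2c and Birc5 of the mitosis list and Mcm2 and Mcm3 of the helicase. On RPKM with no pseudocount there were 11, beside 6.77% of all genes, the others being Aurka, Ccnb1, Tpx2, Cdc6, Mcm5 and Tyms. Ube2c was at 7.70, 7.08 and 17.2 RPKM at 24 h (pCDH, Nwt, Nmu) and at 28.6, 29.0 and 43.1 at the second time. Mcm2 was at 6.01, 4.73 and 15.1 RPKM at 24 h and at 18.4, 18.7 and 19.9 at the second time, and Mcm3 at 6.78, 6.89 and 18.5 at 24 h and at 33.4, 33.1 and 31.9 at the second time. In both helicase genes the 24 h Nmu level lay between the controls of 24 h and those of the second time. All 8 licensing and helicase genes were above the control mean at 24 h, with a median of 0.73 log2 units. So were all 25 of the other DNA synthesis genes, with a median of 0.67, beside 5553 of all 10350 genes tested.

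At the second time, 4 members were at least 2-fold below both controls on the same scale, beside 2.49% of all genes, and only Ccnd1 was 2-fold above, beside 1.96%. Cenpf, a kinetochore protein, was at 4.61 RPKM in pCDH, 3.80 in Nwt and 0.828 in Nmu, and Cenpe, a kinetochore motor, at 9.61, 8.22 and 2.63. Mki67 was at 26.2, 26.3 and 10.5 RPKM, and Kif11 at 11.2, 11.4 and 4.07. For Cenpe, Cenpf and Kif11 the Nmu library of the second time was as low as that of 24 h. Bub1, a kinase of the spindle checkpoint, lay just outside the line on that scale and inside it with no pseudocount, with 16.3, 17.5 and 7.87 RPKM.

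All 9 chromosome, centromere and spindle proteins were below the control mean at the second time, beside 5446 of all 10350 genes tested. Their median was -0.66 log2 units, and Birc5, at 24.1 RPKM against 25.9 and 22.6, lay between the controls. The other side was held by Ccnd1, at 10.7, 10.2 and 26.1 RPKM, and by Ccne1, the cyclin that starts S phase, at 10.4, 10.1 and 16.2. At 24 h Ccnd1 was below both controls, at 7.17, 6.95 and 4.67 RPKM. All 5 clamp and nucleotide synthesis genes were above the control mean at the second time, beside 4895 of all 10350 genes tested. Their median was 0.24 log2 units.

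Sorted by both times, 15 members were above both controls at 24 h and below both at the second time, beside 18.3% of all genes: 11 mitosis genes, among them Ccnb1, Top2a, Tpx2 and Prc1, and Mcm3, Mcm4, Mcm6 and Ccne2. Tk1, E2f1, Ccnd1 and Cdkn1a showed the opposite (13.2% of all genes). A further 17 were above at both times (22.7%) and Ccnb2, Cenpf and Mki67 below at both (22.1%). Top2a, which untangles sister chromatids, was at 7.59, 7.38 and 13.1 RPKM at 24 h and at 30.2, 28.7 and 17.1 at the second time, so that Nmu was the highest construct at 24 h and the lowest at the second time.

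Of the 12 measured cell cycle inhibitors and p53 targets outside the members, 7 were above the control mean at 24 h and 5 below. Their median was 0.46 log2 units, and over all 10350 genes tested 5553 were above and 4786 below. Mdm2, which codes for the ligase that degrades p53, was at 7.40, 8.73 and 46.04 RPKM, and Gadd45a, a growth arrest gene, at 1.33, 1.87 and 30.3, while Cdkn1a was at 45.6, 47.5 and 25.4 and the p53 target Ccng1 at 25.6, 30.9 and 15.5. At the second time Mdm2 was at 8.13, 8.52 and 11.2 RPKM. Myc, a growth regulator, was at 0.338, 0.444 and 8.28 RPKM at 24 h. The 24 h Nmu library was also the one with Lcn2, whose part in these values was not tested.

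Transcript length moved with the Nmu differences at the second time. Over the 25 mitosis genes, the correlation of the difference from the control mean with length was -0.80 (Pearson, log2 length) and -0.75 (Spearman), against -0.29 and -0.21 over the 18 DNA synthesis genes. Over 9961 genes of at least 200 bases, members included, they were -0.25 and -0.27. These are correlations across genes of the same 3 libraries, so the points are not independent. At 24 h the values were -0.40 and -0.33 over mitosis genes, 0.41 and 0.22 over DNA synthesis genes, and -0.08 and -0.09 over all genes.

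The longest members were Cenpf (11102 bases), Mki67 (10059) and Cenpe (7765), and they were also the 3 members of at least 6000 bases, with a median of -1.45 log2 units. All 902 genes of that length had a median of -0.25. The 6 members of 4000 to 6000 bases, Kif11, Bub1, Top2a, Tpx2, Foxm1 and Cdc6, had a median of -0.55, and the 1652 genes of that length one of -0.14. Of these 6 Cdc6, an origin licensing gene, was above the controls, at 2.54, 2.74 and 3.33 RPKM. In the shortest bin, 200 to 1500 bases, 6 members had a median of 0.16 and all genes one of 0.09. The part of length, or of what moves with it in this library, in the lower level of the long mitosis transcripts was not tested.

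**Figure D4:**
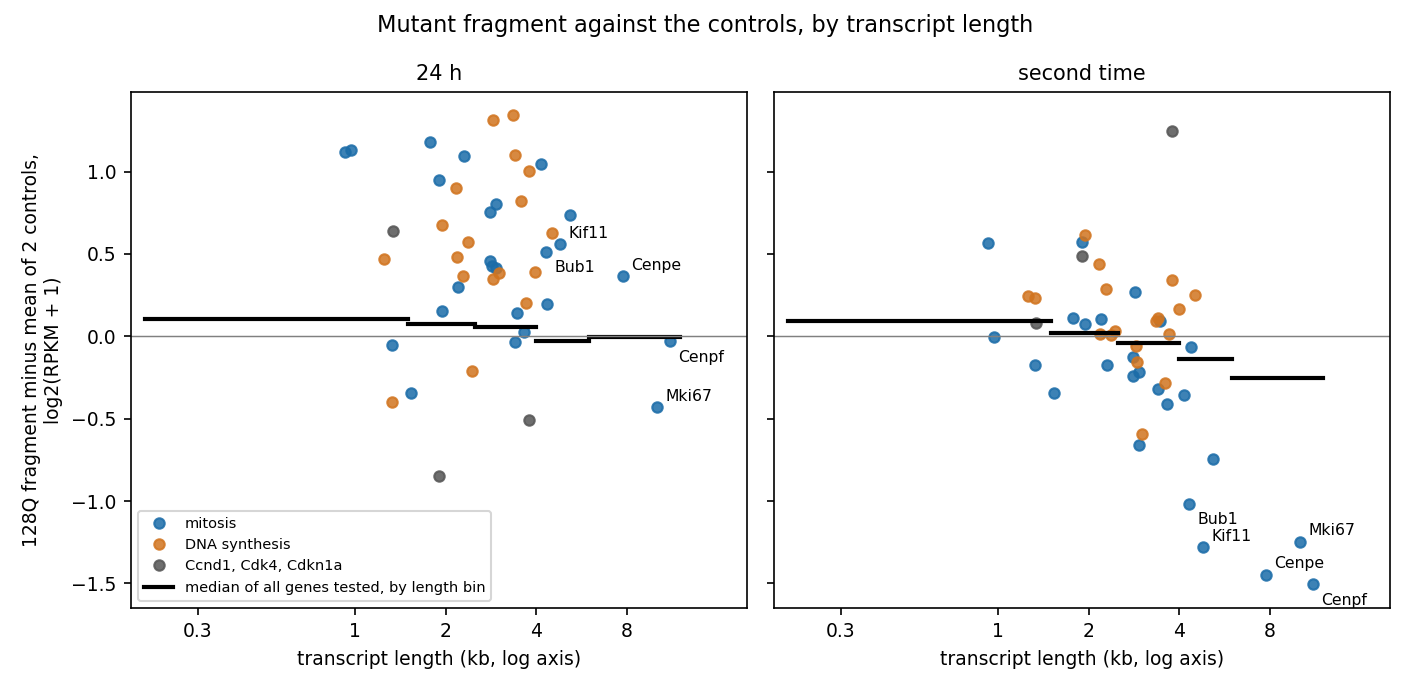
Difference in log2(RPKM + 1) between the fragment with 128 glutamines and the mean of both control constructs (vertical axis) against transcript length (horizontal log axis, kb) at 24 h (left) and at the second time (right), 1 point per gene, with black bars for the median of all genes tested in each length bin. On the right, Cenpe, Cenpf, Mki67, Kif11 and Bub1 lie at -1.01 or below, while the bars go from 0.09 to -0.25.

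In the primary cells, mutant and wild-type mice were compared with 1 library a side, which gives no replicate check. In microglia the mutant library was lower for 42 of 46 members and higher for 4, beside 66.4% and 33.3% of the 10687 genes tested, and lower for 25 of 25 mitosis genes. In macrophages it was higher for 41 members and lower for 5, beside 70.6% and 28.4% of all genes. The medians were -0.29 log2 units for mitosis and -0.23 for DNA synthesis genes in microglia (-0.08 over all genes), and 0.32 and 0.34 in macrophages (0.18 over all genes). Both directions together held for 37 members, beside 48.4% of all genes, and the reverse for 0, beside 10.9%. The macrophage counts turned on the scaling: with median-ratio scaling 31 members were higher and 15 lower there, beside 48% and 51% of all genes. Both directions together then held for 27, beside 27.1%, and the reverse for 0, beside 26.3%. In microglia the counts of 42 and 4 did not change, beside 52.2% and 47.5%.

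On the log2(RPKM + 1) scale none of the members differed 2-fold in microglia, where 0.178% of all genes did so upward and 0.505% downward. In macrophages Tk1, thymidine kinase, was at 3.98 RPKM in wild-type and 9.21 in mutant cells and was the only member at least 2-fold higher on that scale (1.31% of all genes; 0.636% were 2-fold lower); with median-ratio scaling no member was. On RPKM with no pseudocount 11 members were at least 2-fold lower in mutant microglia, beside 3.28% of all genes, all from wild-type levels of 1.79 RPKM or less, and Foxm1 (1.51 and 3.86 RPKM) joined Tk1 in macrophages, beside 4.73%. A fit of the 4 libraries with cell type as a term called 0 members for genotype in limma, with 0.112% of all genes higher and 0.225% lower. Its 1 residual degree of freedom gives little power.

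The microglial levels behind these differences were low. Mcm5 was at 1.79 RPKM in wild-type and 0.715 in mutant microglia (-0.70 log2 units), Top2a at 2.34 and 1.27 (-0.55) and Rrm2 at 0.794 and 0.257 (-0.51). Kif20a, at 0.642 and 0.272 RPKM, rested on about 76 and 27 reads. Cdkn1a went the other way, at 1.82 and 2.59 RPKM. In macrophages Top2a was at 59.3 and 81.2 RPKM and Rrm2 at 12.5 and 21.3, both higher in the mutant, whereas Kif11 was at 59.2 and 51.8 and Ccne1 at 8.32 and 7.42, both lower.

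Markers of granulocytes and bone marrow precursors moved with genotype in both cell kinds. Their summed level went from 1828 RPKM in wild-type to 584 in mutant microglia, with S100a8 at 816 and 252 and Camp at 124 and 40.2. In macrophages the sum went from 431 to 224, although the precursor genes Elane (3.51 and 4.61), Prtn3 (1.79 and 4.39) and Ctsg (1.20 and 3.47) were higher in the mutant. Their part in the cell cycle values was not tested.

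**Figure D5:**
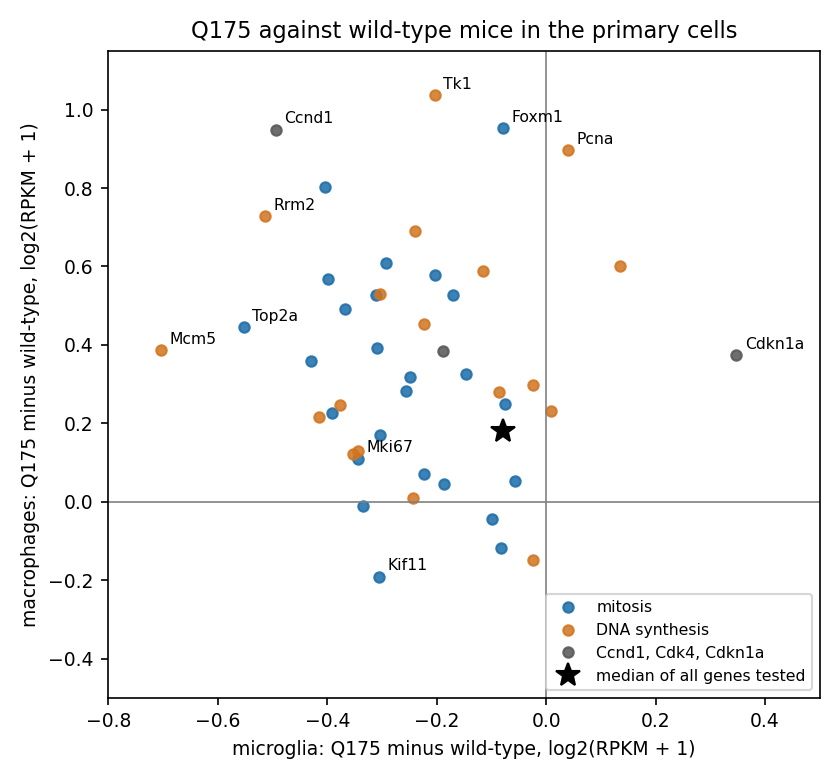
Difference in log2(RPKM + 1) between mutant (Q175) and wild-type mice in microglia (horizontal axis) and in macrophages (vertical axis), 1 point per gene, with a star at the median of all genes tested (-0.08 and 0.18), from 1 library per genotype and cell kind. Most points, 37 of 46 (27 with median-ratio scaling), lie in the upper left, with Tk1 highest at 1.04 and Mcm5 furthest left at -0.70.

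ChIP-seq at 24 h gave 1 library per construct for H3K4me2, a histone mark of promoters and enhancers, and for PU.1, C/EBP alpha and C/EBP beta, factors of the myeloid lineage. A peak for H3K4me2 lay within 1 kb of the start of 46 members in pCDH, 45 in Nwt and 46 in Nmu, beside 90, 89.6 and 89.9% of all genes tested, and Prc1 lacked it in Nwt. Within 250 bases of the start the counts were 35, 36 and 35, beside 70.9, 67.4 and 66%. PU.1 peaks lay near 19, 14 and 18 members, or 41.3, 30.4 and 39.1%, beside 39.4, 26.4 and 33.6% of all genes. Aurka, Bub1, Bub1b, Cdc20, Cenpa, Mki67, Cdk2, Cdt1, E2f1, Mcm7 and Pcna had one in each construct. The share of all genes with a PU.1 peak in each construct was not counted, so this list has no baseline.

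C/EBP beta peaks lay near 13, 21 and 20 members, beside 30.8, 54.7 and 41.1% of all genes, and C/EBP alpha peaks near 2, 10 and 7, beside 9.55, 23.4 and 8.74%. Kif11, Kif2c, Ube2c, Mcm3, Mcm7, Pcna, Rrm2, Ccnd1 and Cdk4 had a C/EBP beta peak in each construct, and Mcm3 and Cdk4 a C/EBP alpha peak in each. For these factors too, the share of all genes with a peak in each construct was not counted. With 1 library per antibody and construct, these counts have no replicate check.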

How the data were processed

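The authors deposited RPKM values, 1 column per RNA library and 1 row per RefSeq transcript, per the file headers. They also deposited 1 peak list for each ChIP-seq library, whose score column, per the file headers and the values, is 1 in every peak and was not used to rank peaks. Peaks were called per library with HOMER findPeaks, per the file headers. Bowtie, STAR 2.0.3e, HOMER, edgeR and mm9 are named, without roles, in the submitters' processing notes. RPKM values are scaled to each library's reads, so a few abundant genes can shift all others.

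The 46 members and all gene lists were chosen with earlier results of these data known. The rule for named genes was every member, by role, with values for those that pass a threshold or stand at the ends of a list, and the highest and lowest 3 of each other list. Genes were kept where 2 or more of the fitted libraries reached 1 RPKM, and log2(RPKM + 1) was fitted with limma 3.58.1 in R 4.3.3. The BV2 fit (6 libraries, 2 residual degrees of freedom) had construct and time as terms, so the times stand in for replicates of a construct. The fit of cell kinds had 10 libraries and 7 residual degrees of freedom, and the primary fit 4 libraries and 1. P-values were two-sided and adjusted by Benjamini-Hochberg. The whole-read steps between low RPKM values gave each library's depth. Of these low values, 100% came within 0.1 read of a whole number. The BV2 fit and the fit of cell kinds were run on simulated data with known changes in genes of at least 5 RPKM. The simulated noise was independent and the same for all genes, with no differences between constructs or genotypes. That run therefore says nothing on low genes or on such differences. Peaks were matched to mm9 start sites within 1 kb, and promoter sequences were taken from RefSeq on GRCm38.p6 by symbol, with no conversion of coordinates. A gene with more than 1 promoter counted once if any of them held the motif. Alternatives were other scalings, pseudocounts of 0.1 and 5, a minimum of 5 RPKM or none, summed transcripts, no transcripts under 200 bases, other model terms, other windows, and leaving out each library.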

Additional observations from a re-analysis of the deposited data

Results flagged for a closer look

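Of the 46 genes, 15 lay above both control constructs at 24 h and below both at the second time with the mutant fragment, and 4 did the opposite. The first pattern was held by 11 mitosis genes and 4 DNA synthesis genes, and the second by Tk1, E2f1, Ccnd1 and Cdkn1a. Both were picked out because the effect of the same construct had opposite signs at the 2 times. With 1 library per construct and time, the difference between the times was not tested, and the share of all genes with each pattern was 18.3% and 13.2%.

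In the primary cells, 37 members were lower in mutant than in wild-type microglia and higher in mutant than in wild-type macrophages, and 0 had the reverse pattern. They were picked out because the genotype effect had opposite signs in the 2 cell kinds. With 1 library per genotype and cell kind, this difference was not tested, and 48.4% of all genes had the first pattern and 10.9% the second. With median-ratio scaling 27 members had the first pattern, beside 27.1% of all genes.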

How the results depend on the processing

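The time counts were the least stable. Members called higher at the second time went from 0 to 23 with a minimum of 5 RPKM, 26 with a pseudocount of 5, 32 without transcripts under 200 bases, 35 without the construct term and 45 in the control constructs alone, where 1 was called lower. Leaving out 1 library gave 0 to 45 higher and 0 to 1 lower. For Nmu against Nwt the same gave 0 to 24 higher and 0 to 7 lower, and against pCDH 0 to 23 and 0 to 7. For BV2 against macrophages it gave 1 to 4 higher and 6 to 17 lower, with 35 lower when only the 24 h BV2 libraries were used, and for BV2 against microglia 27 to 44 higher. The primary fit called 0 members lower in microglia when no filter was applied, and 0 of all 23953 genes in either direction. It could not be fitted with a library left out. In BV2, leaving out a library leaves 1 of its construct, assumed to vary like the others. That remaining library adds nothing to the time difference, which then rests on the other constructs. The cause of these changes was not tested.

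With the times taken as a replicate block (the time term), 0 members were called for either Nmu comparison, and without the replicate block the count was also 0. Other scalings moved no count of members called in a fit by more than 1.5 times, but they moved counts over all genes, from 4691 to 2681 lower in microglia than in macrophages with median-ratio scaling, from 9 to 5 higher in Nmu than in pCDH, and for genotype from 12 higher and 24 lower to 0 and 0. For comparisons of single libraries, median-ratio scaling and a 2-fold line with no pseudocount were added after the data were seen. The first raised the members lower in mutant macrophages from 5 to 15 and took those 2-fold higher there from 1 to 0. The second gave 2 in place of 1 there, 11 in place of 5 members 2-fold higher in Nmu at 24 h, and 11 in place of 0 that were 2-fold lower in mutant microglia. Signs turned for genes near 0. For BV2 minus microglia, Ccnd1 became -0.14, -0.22 and -0.36 with median-ratio scaling, quantile normalization and the 24 h libraries alone. Leaving out 1 library gave -0.092 to 0.43 for that gene, and -0.49 to 0.18 for Cdkn1a at the second time minus 24 h.

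Within 250 bases of the start, PU.1 peaks lay near 6, 4 and 6 members (pCDH, Nwt, Nmu), beside 20.3, 12 and 16.2% of all genes, C/EBP alpha peaks near 1, 6 and 4, beside 5.18, 15.4 and 5.53%, and C/EBP beta peaks near 7 in pCDH, beside 17.1%. Within 2.5 kb, PU.1 gave 22 in Nwt and C/EBP alpha 4 in pCDH, beside 41.1 and 13.9%. From 100 bases before the start, the E2F motif was in 1 mitosis promoter and the CHR element in 1 DNA synthesis promoter. All peak scores were equal, so no stricter peak threshold could be tried.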

Other observations

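Among genes of the same pathways that the text has not described, the spindle gene Nuf2 was at 113 and 61.2 RPKM in wild-type and mutant macrophages. The first was the highest value among the 25 member and 39 other mitosis genes listed. Nuf2 was at 1.14 to 5.82 RPKM in BV2 and at 0.427 and 0.160 in microglia. Cdc25b, a phosphatase that activates the mitotic kinase, was at 78.1 RPKM in wild-type and 31.1 in mutant macrophages, and Gmnn, which blocks relicensing of origins, was at 39.0 and 78.1. These 2 genes therefore differed by genotype in opposite directions within the same pair of libraries. Phlda3, a p53 target, was at 19.9, 19.0 and 8.21 RPKM at 24 h and at 6.78, 7.23 and 13.5 at the second time, like Cdkn1a and unlike Mdm2.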
